A study of Homo sapiens with 4 samples.

Results

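Carbonic anhydrases are zinc enzymes that convert carbon dioxide and water to bicarbonate and a proton. The family described here was chosen by name: all probe sets of a microarray that are paired with a single gene among CA1, CA2, CA4, CA5B, CA8, CA9, CA11, CA12, CA13 and CA14. That gave 21 probe sets of 9 genes, among 49293 probe sets and 18132 genes tested in all. CA9 had no probe set of its own in the annotation used and was not analysed here. The family was taken up with the lower level of CA13 in the knockdown arrays already known, so the changes of its members between the groups are given as a description. No p-value is printed for a single member. The calls, counts and confidence intervals of members given below do not allow for that choice.

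The study asked which genes lie downstream of ARID1A, a gene for a DNA-binding part of the SWI/SNF chromatin remodeller. OE33 cells, an established human line of oesophageal adenocarcinoma, received an siRNA pool against ARID1A (ON-TARGETplus SMARTpool, 2 arrays, called knockdown here) or the ON-TARGETplus Non-targeting Pool (2 arrays, called mock, as in the sample titles). All cells grew in RPMI medium with 15% serum, were given 50 nM siRNA with a lipid reagent and were harvested 48 hours later, so the mock cells share the transfection and differ in the siRNA pool. The knockdown is transient, in 1 cell line, and each group rests on 2 biological replicates.

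The family works in several places in the cell. Cytosolic forms such as CA1, CA2 and CA13 speed up the exchange of carbon dioxide and bicarbonate inside the cell, CA5B does so in mitochondria, and CA4, CA9, CA12 and CA14 sit on the cell surface, where they work beside bicarbonate and proton transporters. CA8 and CA11 keep the fold of the family but have no catalytic activity. In the gut, CA1 and CA2 are known from the surface epithelium and from acid-secreting and bicarbonate-secreting cells, and CA9 and CA12 are known from tumours, where CA9 is a classic target of the hypoxia-inducible factor HIF-1.

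The values are log2 levels from RMA, so a difference of 1 is a 2-fold difference. Array medians ran from 5.90 to 5.92 in knockdown and from 5.89 to 5.93 in mock. ARID1A itself had a level of 7.53 on both knockdown arrays, against 9.28 and 9.33 on the mock arrays, at its brightest probe set. That is a log2 change of -1.78, the largest decrease of its probe sets. At the others the change ran from -1.61 to 0.11, with groups that overlapped only at the last, the dimmest of them. The median over all ARID1A probe sets was -1.38. All 7 epithelial markers examined were bright, between 10.8 (ELF3) and 14.6 (KRT19). The 20 measured marker genes of erythroid cells, leukocytes, fibroblasts and endothelium lay between 2.81 (LUM) and 6.64 (HBB), a range that serves here as the background of genes such a line should not express. Of these 20 genes, 12 were lower on both knockdown arrays than on both mock arrays and 2 were higher, against 23.6% and 25.8% of all genes. None passed the test described below (limma), and 5 were lower at an unadjusted p under 0.05, against 7.25% of all genes. The 5 endothelial markers were among the 12, with summed log2 levels of 26.4 and 26.3 in knockdown, against 27.1 and 27.4 in mock. The 3′ probe set of beta-actin exceeded its 5′ probe set, a measure of RNA integrity, by 1.21 and 1.10 in knockdown and by 1.04 and 0.995 in mock. For GAPDH the same difference was 0.201 and 0.215 in knockdown and 0.199 and 0.211 in mock, where the groups overlapped. The part of the marker and beta-actin shifts in the values below was not tested.

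CA13 was the carbonic anhydrase with the largest difference. At its brightest probe set, 11730049_at, its level was 6.45 and 6.56 in the knockdown arrays, against 7.66 and 7.58 in the mock arrays. The knockdown and mock arrays were more than a full log2 unit apart, and the replicates of each group lay close together. The means were 6.50 ± 0.079 in knockdown and 7.62 ± 0.061 in mock (SD, n = 2 each), a log2 change of -1.11 with a 95% confidence interval of -1.32 to -0.91. On the linear scale 46.2% of the mock level was left, with an interval of 40.1% to 53.2%. Both knockdown levels lay below the top of the background markers, 6.64 (HBB), so the decrease could be understated. CA13 ranked as the 11th largest decrease among the 18132 genes, each taken at its brightest probe set. The family was taken up with this decrease known, and neither the rank nor the interval allows for that. In a bulk measurement of this kind, a lower level per cell and fewer cells that express the gene cannot be told apart.

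The other CA13 probe sets did not show a difference of that size. Probe set 11730051_at had levels of 4.10 and 3.82 in knockdown, against 4.36 and 4.40 in mock. Its knockdown arrays were again both below its mock arrays, and its log2 change was -0.42 with an interval of -0.70 to -0.14. Probe set 11730050_a_at had levels of 3.58 and 3.88 in knockdown, against 3.69 and 3.85 in mock. Here the groups overlapped, with a change of -0.05 and an interval of -0.35 to 0.26.

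Both of these probe sets lay in the dimmest 25% of the array, below a mean log2 level of 4.26, where RMA can understate changes. Whether this bears on their smaller changes was not tested. The names of the 3 CA13 probe sets mark none of them as sharing probes with other genes, and which transcripts of CA13 each one covers was not analysed here.

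**Figure D1:**
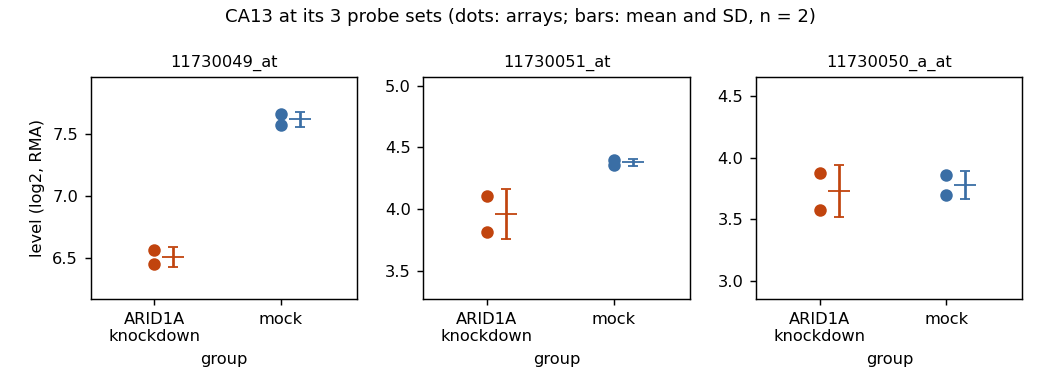
Levels of CA13 (log2, RMA) at its 3 probe sets, in ARID1A knockdown (left in each panel) and mock (right); dots are single arrays, bars are means with SD (n = 2), and each panel spans the same number of log2 units. At 11730049_at the knockdown arrays lie at 6.45 and 6.56 and the mock arrays at 7.66 and 7.58, at 11730051_at the groups are 0.42 apart, and at 11730050_a_at they overlap.

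By limma over all probe sets (Benjamini-Hochberg adjusted p under 0.05), 1 of the 21 carbonic anhydrase probe sets was called, 11730049_at of CA13, and it was lower. Over the whole array 0.316% of probe sets were called in either direction and 0.166% were called lower. The family was chosen with the lower level of CA13 known, so its share of calls is not a result about the family. None of the 18 probe sets of the other genes was called. Both knockdown arrays lay below both mock arrays at 7 of the 21 probe sets and above them at 2, against 22.5% and 24.2% of all probe sets, and at the other 12 the groups overlapped. At an unadjusted p under 0.05 there were 3 of 21, 1 higher and 2 lower, where the array as a whole had 16.2%. Over the 9 genes at their brightest probe sets the median log2 change was -0.08, and over all genes it was -0.0043. Without CA13, 5 of the 18 remaining probe sets lay below and 2 above, and 1 had an unadjusted p under 0.05. The median over the 8 remaining genes was -0.05. With any 1 of the 4 arrays left out, the call of CA13 was lost, as was that of ARID1A, while the change of CA13 stayed between -1.17 and -1.06.

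**Figure D2:**
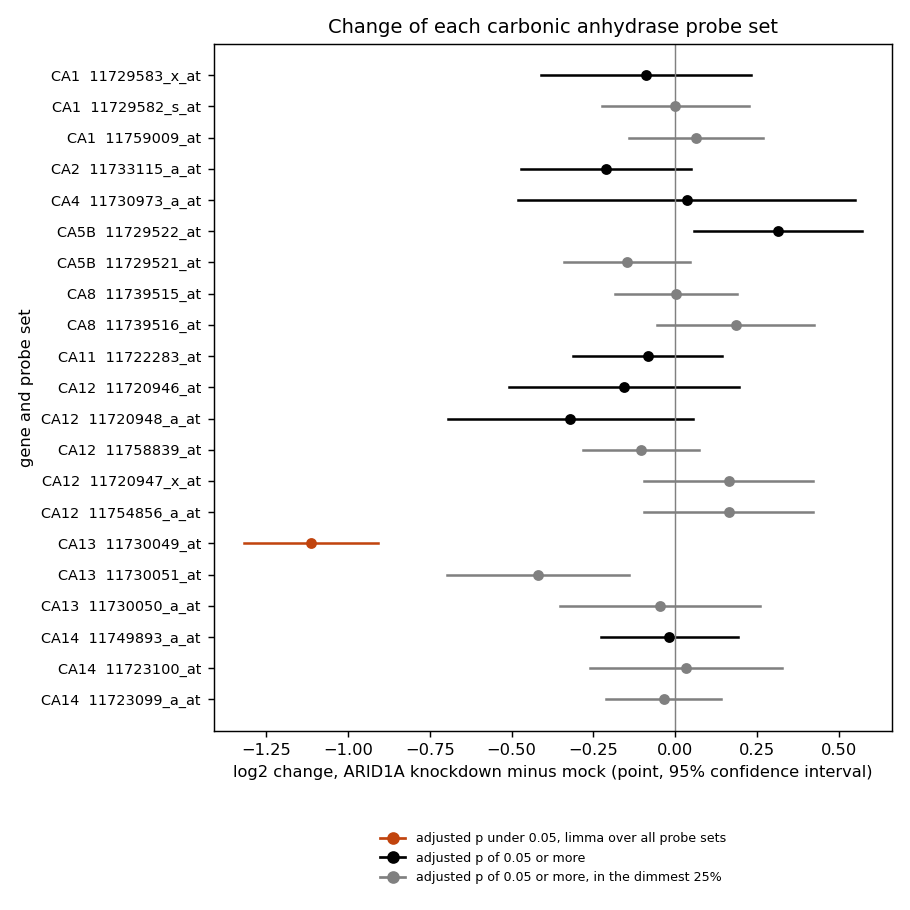
Log2 change (ARID1A knockdown minus mock) of each of the 21 carbonic anhydrase probe sets, with its 95% confidence interval from limma; genes run down the page and grey marks probe sets in the dimmest 25% of the array. Probe set 11730049_at of CA13, at -1.11, stands apart from the rest, whose changes run from -0.42 to 0.31.

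For the 8 other genes the intervals bound what could have been missed. At all 18 of their probe sets the 95% interval lay between -0.70 and 0.57, so a change as large as that of CA13 at 11730049_at was outside every one of them. The interval included 0 at 17 of the 18. Most of these probe sets are dim: 10 of the 18, and 12 of all 21, lay in the dimmest 25%. Only 2 of the 21 had a mean level above the whole range of the background markers, those of CA2 and CA13. For the other 19 a level in this range is not evidence that the gene was expressed, and a change could be understated.

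CA2, a fast and widely expressed cytosolic form, had a single probe set, 11733115_a_at. Its level was 7.53 and 7.52 in knockdown, against 7.87 and 7.60 in mock. Both knockdown arrays were lower, but the gap between the groups was smaller than that between the mock arrays. The log2 change was -0.21 (interval -0.47 to 0.05), so that between 72.1% and 103.5% of the mock level was left. Without mock replicate 1 the change was -0.08, and without mock replicate 2 it was -0.34.

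CA1, the cytosolic form abundant in red blood cells and colonic epithelium, was measured by 3 probe sets. At 11729583_x_at the levels were 5.05 and 4.83 in knockdown, against 4.88 and 5.17 in mock. At 11729582_s_at they were 4.04 and 4.12 in knockdown, against 4.17 and 3.996 in mock, and at 11759009_at they were 3.46 and 3.32 in knockdown, against 3.31 and 3.34 in mock. The groups overlapped at all 3, with changes of -0.09, 0.00 and 0.06. The names of the first and the second mark them as holding probes that can match other genes, so the third is the gene-specific measure, and it is in the dimmest 25%.

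CA5B, the more widely expressed mitochondrial form, had 2 probe sets that differed in direction. At 11729522_at the levels were 4.57 and 4.63 in knockdown, against 4.41 and 4.16 in mock, a change of 0.31 (interval 0.06 to 0.57). Leaving out mock replicate 1 gave 0.44, and leaving out mock replicate 2 gave 0.19. At 11729521_at they were 4.18 and 4.19 in knockdown, against 4.28 and 4.39 in mock, a change of -0.15 (interval -0.34 to 0.05). The groups did not overlap at either one, and the signs were opposite. The first is the 1 probe set of these 8 genes whose interval excludes 0, and it did not pass the adjusted test.

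Of the forms on the cell surface, CA12 had the most probe sets, 5, of which 2 carried identical values on all 4 arrays and count as a single measurement. At 11720946_at, its brightest, the levels were 5.81 and 5.44 in knockdown, against 5.68 and 5.87 in mock. The groups overlapped there, with a change of -0.16 (interval -0.51 to 0.20). At 11720948_a_at the levels were 4.90 and 4.84 in knockdown, against 4.97 and 5.41 in mock, so that both knockdown arrays were lower and the change was -0.32 (interval -0.70 to 0.05).

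The remaining CA12 probe sets were in the dimmest 25%. At 11758839_at the change was -0.10, with levels of 3.74 and 3.70 in knockdown against 3.82 on both mock arrays. At the identical pair, 11720947_x_at and 11754856_a_at, the levels were 3.40 and 3.31 in knockdown, against 3.07 and 3.31 in mock, a change of 0.16. CA12 thus had 3 probe sets with a negative change and an identical pair with a positive one, and at none of them did the interval exclude 0.

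CA4, a form anchored to the membrane by a lipid, had 1 probe set, 11730973_a_at, with levels of 4.92 and 5.55 in knockdown, against 5.11 and 5.28 in mock. The knockdown arrays lay on either side of the mock arrays, and the change of 0.03 had the widest interval of the family, -0.48 to 0.55. Without knockdown replicate 2 it was -0.28 and without knockdown replicate 1 it was 0.35.

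CA14, a transmembrane form, had 3 probe sets with changes of -0.02, 0.03 and -0.04. At the brightest, 11749893_a_at, the levels were 4.45 and 4.56 in knockdown, against 4.47 and 4.58 in mock. The groups overlapped there, with an interval of -0.23 to 0.19. At 11723100_at the levels were 3.99 and 3.69 in knockdown, against 3.76 and 3.86 in mock, and at 11723099_a_at they were 3.06 and 3.02 in knockdown, against 3.07 on both mock arrays.

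The forms without catalytic activity were also measured. CA11 had levels of 5.41 and 5.55 in knockdown, against 5.50 and 5.64 in mock, at 11722283_at. The groups overlapped, and the change was -0.08 (interval -0.31 to 0.14). CA8, which in the brain binds the inositol trisphosphate receptor, had both probe sets in the dimmest 25%. At 11739515_at its levels were 3.77 and 3.79 in knockdown, against 3.82 and 3.73 in mock, and at 11739516_at they were 3.45 and 3.27 in knockdown, against 3.23 and 3.12 in mock. The changes were 0.00 and 0.18, and at the second both knockdown arrays were the higher ones.

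**Figure D3:**
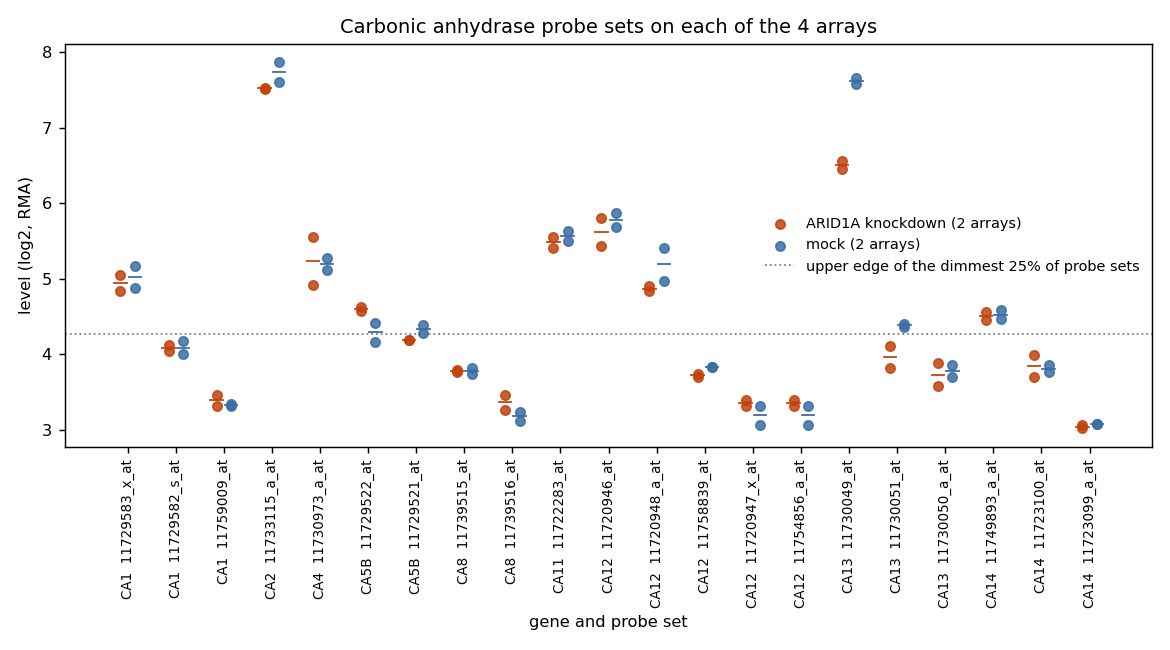
Level (log2, RMA) of all 21 carbonic anhydrase probe sets on each array, ARID1A knockdown left of mock within each probe set; short lines are group means and the dotted line, at 4.26, is the upper edge of the dimmest 25% of all probe sets. Levels of different probe sets depend in part on their probes, so a comparison of level between them, or with the dotted line, is rough. Of the 21, 12 lie below the dotted line.

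Among the 21 probe sets, the largest decrease outside CA13 was that of CA12 at 11720948_a_at, -0.32, and the largest increase was that of CA5B at 11729522_at, 0.31.

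**Figure D4:**
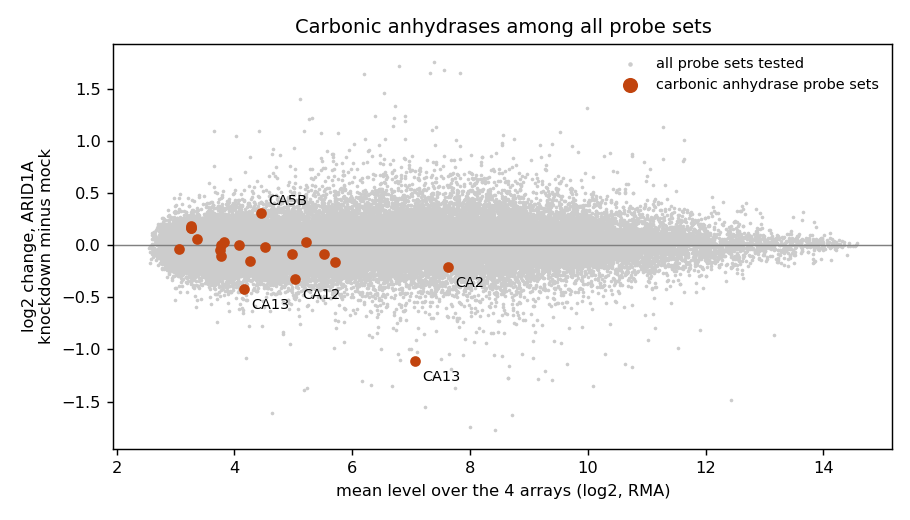
Log2 change (ARID1A knockdown minus mock, y axis) against the mean log2 level over the 4 arrays (x axis) for all 49293 probe sets (grey) and for the 21 of the carbonic anhydrases (red). CA13 at 11730049_at, with a change of -1.11, lies outside the bulk of the grey points, and the other points lie within it or at its edge.

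Of the member genes 4, CA1, CA2, CA8 and CA13, lie on chromosome 8, and CA13, CA1, CA3 and CA2 follow each other there in this order in the RefSeq table of assembly GRCh38.p14. The other genes of this cluster did not show a difference of that size at their brightest probe sets. CA1 and CA2 had changes of -0.09 and -0.21 there. CA3, a cytosolic form of muscle, had -0.25 (interval -0.64 to 0.15), with levels of 5.03 and 4.89 in knockdown against 4.98 and 5.44 in mock. The levels of CA1 and CA3 lay within the range of the background markers, where a change could be understated. The CA1 probe set is also one whose probes can match other genes. The CA3 change was -0.48 without mock replicate 1, -0.02 without mock replicate 2 and also -0.02 as the median over its probe sets. Of the 5 nearest measured genes on each side of CA13, 5 had a positive and 5 a negative change, from -0.25 (CA3) to 0.21 (E2F5). None passed the limma test, and 1, E2F5, had an unadjusted p under 0.05, against 17.0% of all genes. RBIS, a factor of ribosome assembly and the nearest measured gene on the other side, had 0.09, and E2F5, a transcription factor of the cell cycle, had levels of 9.50 in knockdown and 9.29 in mock (means, n = 2 each; limma adjusted p = 0.241). This neighbourhood was examined after the value of CA13 was known.

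**Figure D5:**
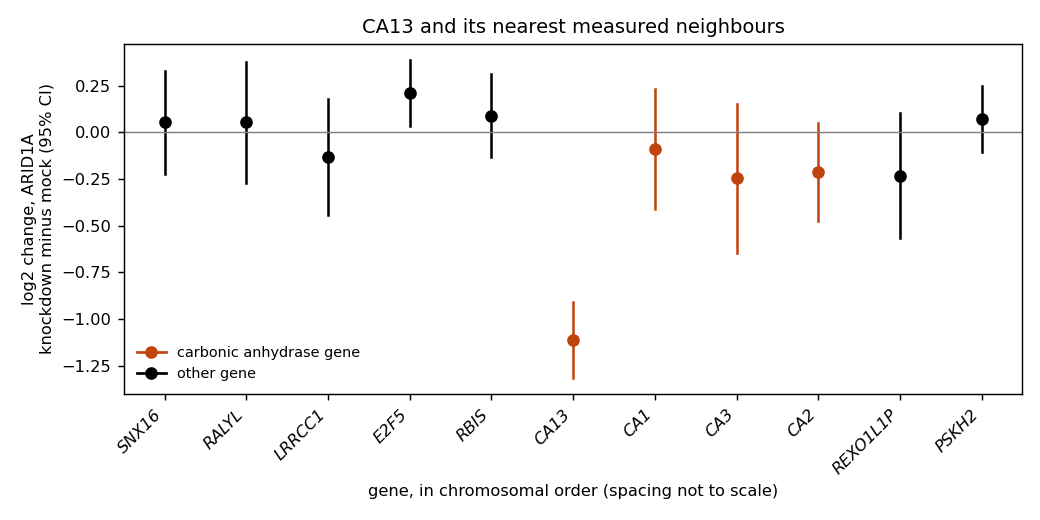
Log2 change (ARID1A knockdown minus mock) with its 95% confidence interval for CA13 and the 5 nearest measured genes on each side, each at its brightest probe set, in chromosomal order; spacing is not to scale and carbonic anhydrase genes are red. CA13 lies at -1.11 and the 10 neighbours lie between -0.25 and 0.21.

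The rest of the family, which was not among the genes chosen, was examined beside it: CA3, CA5A, CA6, CA7 and CA10, and the receptor phosphatases PTPRG and PTPRZ1, whose outer part has a carbonic anhydrase-like domain. None of their 26 probe sets passed the limma test, and 1 was lower at an unadjusted p under 0.05, where 0.316% of all probe sets passed and 16.2% had such a p in either direction. That was CA6, the secreted form of saliva, at 11763665_at, with levels of 5.11 and 4.92 in knockdown against 5.46 and 5.42 in mock (log2 change -0.43, interval -0.65 to -0.20, limma adjusted p = 0.129). Its next probe set in level, 11753393_a_at, had a change of 0.11, with both knockdown arrays above both mock arrays. CA7, a cytosolic form best known from neurons, had a change of 0.06 (limma adjusted p = 0.814) and PTPRG one of 0.08 (0.734). CA6, CA7 and PTPRG all lay within the range of the background markers.

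Transporters that work with carbonic anhydrases were examined as a list of bicarbonate and chloride carriers, of which 14 of 15 were measured. None passed the limma test, where 0.403% of all genes did. At an unadjusted p under 0.05, 1 was higher and 1 was lower, where 17.0% of all genes were in either direction, and the median log2 change was -0.04. SLC4A2, which exchanges chloride for bicarbonate at the basolateral membrane of epithelia, had levels of 7.73 and 7.65 in knockdown against 7.99 and 8.05 in mock (log2 change -0.33, limma adjusted p = 0.145). SLC26A6, an apical exchanger, had levels of 7.54 and 7.47 in knockdown against 7.36 and 7.22 in mock (0.22, limma adjusted p = 0.300). The sodium-dependent exchanger SLC4A8 had a change of -0.33 (0.326) and SLC4A9 one of 0.11 (0.550).

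Of the genes of proton and lactate export 11 of 15 were measured, with a median log2 change of 0.02 and none past the limma test. At an unadjusted p under 0.05 there was 1, against 17.0% of all genes in either direction. This was SLC9A8, a sodium-proton exchanger of the Golgi and of epithelial surfaces, at 7.07 and 7.12 in knockdown against 7.43 and 7.47 in mock (log2 change -0.36, limma adjusted p = 0.119). Basigin (BSG), the chaperone of the lactate transporters, had a change of 0.15 (0.394), the intestinal exchanger SLC9A2 one of 0.15 (0.410) and SLC16A4 one of -0.18 (0.545).

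The enzymes that use bicarbonate as a substrate were all measured, 9 of 9, with a median log2 change of 0.03 and none past the limma test. Over all their 21 probe sets the median change was 0.19. Both knockdown arrays lay above both mock arrays at 15 of the 21 and below them at 2, against 24.2% and 22.5% of all probe sets. At an unadjusted p under 0.05, 3 genes were higher at their brightest probe sets, against 9.76% of all genes. These were MCCC1, a subunit of the leucine-degrading methylcrotonyl-CoA carboxylase, with a change of 0.39 (limma adjusted p = 0.222), and PCCB and PCCA, the subunits of mitochondrial propionyl-CoA carboxylase, both with a change of 0.24 (0.223 and 0.224). CPS1, which makes carbamoyl phosphate from bicarbonate and ammonia, had a change of -0.10 (0.702), at a level within the range of the background markers.

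The 20 listed genes of the hypoxia response, a list that does not hold CA9, were all measured, with a median log2 change of 0.09. None passed the limma test, and at an unadjusted p under 0.05 there were 8 higher and 1 lower, against 9.76% and 7.25% of all genes. The glycolytic ALDOC had a change of 0.54 (limma adjusted p = 0.0655), PFKFB4 of 0.46 (0.0778), VEGFA of 0.51 (0.114) and the demethylase KDM3A of 0.32 (0.145). ALDOC, PFKFB4, VEGFA and KDM3A passed when the variance prior followed the level (limma adjusted p = 6.33e-04, 0.00995, 0.00360 and 0.00992), a setting that called 3209 probe sets on the array. ALDOC also passed with arrays centred on their medians and without the dimmest 25% (limma adjusted p = 0.0350 and 0.0427), and PFKFB4 with arrays centred (0.0477). ALDOC, PFKFB4, VEGFA and KDM3A did not pass under quantile normalization (limma adjusted p = 0.0565, 0.0756, 0.0908 and 0.136). Nor did they pass with replicate number as a block (limma adjusted p = 0.290, 0.306, 0.341 and 0.374) or without probe sets that share probes. Without probe sets that share probes the changes were smaller, 0.18 for ALDOC and 0.10 for VEGFA. As the median over a gene's probe sets the change was 0.11 for PFKFB4 and 0.27 for VEGFA. CA12, also described as induced by low oxygen, had its values given above, with groups that overlapped at its brightest probe set.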

How the data were processed

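Total RNA of 4 OE33 cultures was measured on Affymetrix Human PrimeView arrays. The deposited values are log2 levels per probe set, 1 column per array. RMA and Partek are named per the submitters' processing notes, without version or role, and the log2 scale was taken from that and from the range of the values. RMA sets arrays to a common distribution, so changes in total mRNA cannot be seen. Arrays give no read depth, and their number limits the precision. No source used here gives scan batches.

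Of 49372 probe sets 79 controls were left out. Genes came from the platform annotation, with symbols checked in a RefSeq table of GRCh38.p14, and 44988 probe sets had 1 gene, 1832 several and 2473 none. A gene's brightest probe set is that with the highest mean over the 4 arrays. Knockdown was compared with mock by limma 3.58.1 in R 4.3.3 (2 residual and 3.62 prior degrees of freedom), unpaired, with Benjamini-Hochberg adjustment over 49293 probe sets. Named were all probe sets of the members, ARID1A, and up to 4 genes of smallest p per list. CA13's neighbours, and E2F5 and RBIS among them, were chosen later. Members and lists were chosen with earlier results of these data known. The same numbers on arrays of the 2 groups are not said to mark a shared culture or day. In simulated data for knockdown against mock, on 49293 probe sets, 1 of 50 log2 changes of 0.5 was recovered, 41 of 50 of 1, 47 of 50 of 1.5 and 49 of 50 of 2, and 14 of 152 calls were false. The simulated errors were normal and independent between arrays and probe sets, with variances drawn from limma's own fitted prior. That checks the code, and the rates of recovery and of false calls on the real arrays may differ. Alternatives were a replicate block, median centring, quantile normalization, filters on dim and shared probe sets, an intensity trend, the median over a gene's probe sets, and leaving out each array.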

Additional observations from a re-analysis of the deposited data

How the results depend on the processing

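Against 156 probe sets past the test (74 higher, 82 lower), 671 passed with arrays centred on their medians (403 and 268), 297 under quantile normalization (142 and 155), 487 without the dimmest 25% (276 and 211), 3209 with an intensity trend in the prior (1928 and 1281) and 23 without probe sets that share probes (7 and 16). None passed (0 in limma) with the replicate block, with its crossed form or with any array left out (0 to 0), settings with 1 residual degree of freedom, where 5535, 9467 and 4531 to 6814 had an unadjusted p under 0.05, against 7969. Deviations of arrays with the same number correlated at -0.20 over probe sets, so the crossed pairing was added after seeing the data. The count of carbonic anhydrase probe sets past the test was 1, CA13 at 11730049_at, in the 5 settings on scaling, filters and prior and with identical probe sets counted once, and 0 with the replicate block, with the crossed block and with any array left out (0 to 0), where 2 to 4 still had an unadjusted p under 0.05 (3 with either block). The change of CA13 was -0.42 as the median over its probe sets. The family median of -0.08 was -0.0174 without shared probe sets and also as the median over each gene's probe sets, and ran from -0.0804 to -0.0130 with an array left out; the cause was not tested. Signs turned for CA1 (0.0638 without shared probe sets; -0.235 to 0.0572 with an array left out), CA14 (0.0078 under quantile normalization; -0.0748 to 0.0400), CA4 (-0.281 to 0.351), CA8 (-0.0391 to 0.0458), CA12 (-0.341 to 0.0270) and CA7 (-0.0413 to 0.161). As the median over a gene's probe sets the change was 0.0834 for CA5B, -0.0156 for CA6, -0.208 for SLC9A8, 0.120 for CPS1, -0.0259 for PTPRG, 0.125 for SLC16A4 and 0.0237 for SLC4A8, and with an array left out it ran from -0.225 to 0.0314 for CPS1 and from -0.0271 to 0.188 for PTPRG. SLC4A2 and SLC9A8 passed with the intensity trend (limma adjusted p = 0.0338 and 0.0342).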
